A study of Mus musculus with 8 samples.

Results

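NADPH oxidases and xanthine oxidase are enzymes that produce superoxide or hydrogen peroxide, and 9 of their genes were examined in lung endothelial cells (ECs) of neonatal mice reared in high oxygen. The 9 genes were picked by symbol from the 54532 genes of the deposited count table: the catalytic NADPH oxidase subunits Nox1, Nox4 and Cybb, their partner subunits Cyba, Ncf1 and Ncf4, the dual oxidases Duox1 and Duox2, and Xdh, which encodes xanthine oxidoreductase. All 9 symbols were found. The pups were wild-type C57BL/6J mice, and ECs were taken on postnatal day 14 (P14). The normoxia group had breathed room air with 21% oxygen since birth, the hyperoxia group air enriched to 80% oxygen, and each condition was represented by 4 bulk RNA-seq libraries. Lung cells were first depleted of CD45-positive leukocytes with magnetic beads and ECs were then captured with beads against CD31, per the study's methods. No source used here says whether the libraries of a group came from separate litters or isolations, so p-values measure the spread between these libraries, part of which may be technical. In bulk RNA, fewer cells of a type and less RNA per cell cannot be told apart.

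NADPH oxidases are membrane flavocytochromes that carry electrons from cytosolic NADPH across the membrane to oxygen. The phagocyte enzyme, with Cybb as its catalytic subunit, is silent until cytosolic subunits, among them those encoded by Ncf1 and Ncf4, and a Rac GTPase assemble on it, whereas Nox4 needs only the membrane partner encoded by Cyba and is regarded as constitutively active, releasing mostly hydrogen peroxide. Xanthine oxidase is the form of xanthine oxidoreductase that passes electrons from purine breakdown to oxygen, and both systems have long been studied as sources of oxidants in lung vessels exposed to high oxygen.

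Libraries held 16098086 to 18300730 counts. Summed over 10 markers, pan-endothelial RNA was 16866 to 17813 CPM (counts scaled to a common library size) in normoxia and 16971 to 17860 CPM in hyperoxia, led by Cdh5 and Pecam1, so EC markers were abundant in both groups, although 4 of the 10 were called higher and 3 lower in hyperoxia. Other lung cells were represented as well. Alveolar type 2 markers summed to 251 to 353 CPM in normoxia and 783 to 2333 CPM in hyperoxia, and all 10 of them were higher in hyperoxia, while leukocyte markers summed to 113 to 272 and 139 to 264 CPM, and none of those 7 passed the test in either direction. Hyperoxia 3 had the lowest alveolar type 2 sum of its group. Normoxia 2 and hyperoxia 4 held RNA of male pups almost alone, with 3 and 5 Xist counts, and hyperoxia 3 held RNA of female pups almost alone, with 7 Y-linked counts, whereas the other 5 libraries held both.

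The 9 genes were ordered by their level per gene length. In normoxia Cyba had the highest level, at 48.6 ± 7.29 FPKM (fragments per kilobase of exon, scaled to library size), followed by Xdh at 7.40 ± 0.835 FPKM. Ncf4 at 2.43 ± 1.20, Cybb at 2.43 ± 1.19 and Ncf1 at 2.16 ± 0.681 FPKM did not differ beyond their spread. Nox1 at 0.893 ± 0.150 and Nox4 at 0.308 ± 0.0838 FPKM came below them, and Duox2 and Duox1, at 0.137 ± 0.0791 and 0.132 ± 0.0688 FPKM, were lowest and overlapped (SD, n = 4 each); the highest Duox2 library, at 0.219 FPKM, lay above the lowest Nox4 library, at 0.201 FPKM. The order in hyperoxia was the same down to Nox4 except that Cybb (2.08 to 5.21 FPKM) stood above Ncf4 (1.73 to 4.48 FPKM), again within their spread, and Nox1 (1.40 to 2.69 FPKM) overlapped Ncf1 (2.07 to 3.72 FPKM).

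Hyperoxia increased 2 of the 9 genes, both catalytic subunits. Nox4 rose from 2.63 ± 0.717 to 7.37 ± 1.59 CPM and Nox1 from 2.98 ± 0.495 to 6.96 ± 2.24 CPM (mean ± SD, n = 4 each). The other 7 showed no change past the threshold: 6 were tested without passing it and Duox1 had too few counts for the fit. An adjusted p under 0.05 was required, from edgeR's quasi-likelihood test with Benjamini-Hochberg adjustment over the 15564 genes tested. Among all genes tested, 18.5% were higher in hyperoxia by that rule and 17.1% were lower, so 2 higher and 0 lower of 8 tested members are a count close to what the whole table shows. With the added condition of a log2 fold change of at least 1, 5.62% of all genes were higher, and both Nox4 and Nox1 met it. The median log2 fold change (hyperoxia relative to normoxia) was 0.28 over the 8 tested members and -0.004 over all genes tested.

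**Figure D1:**
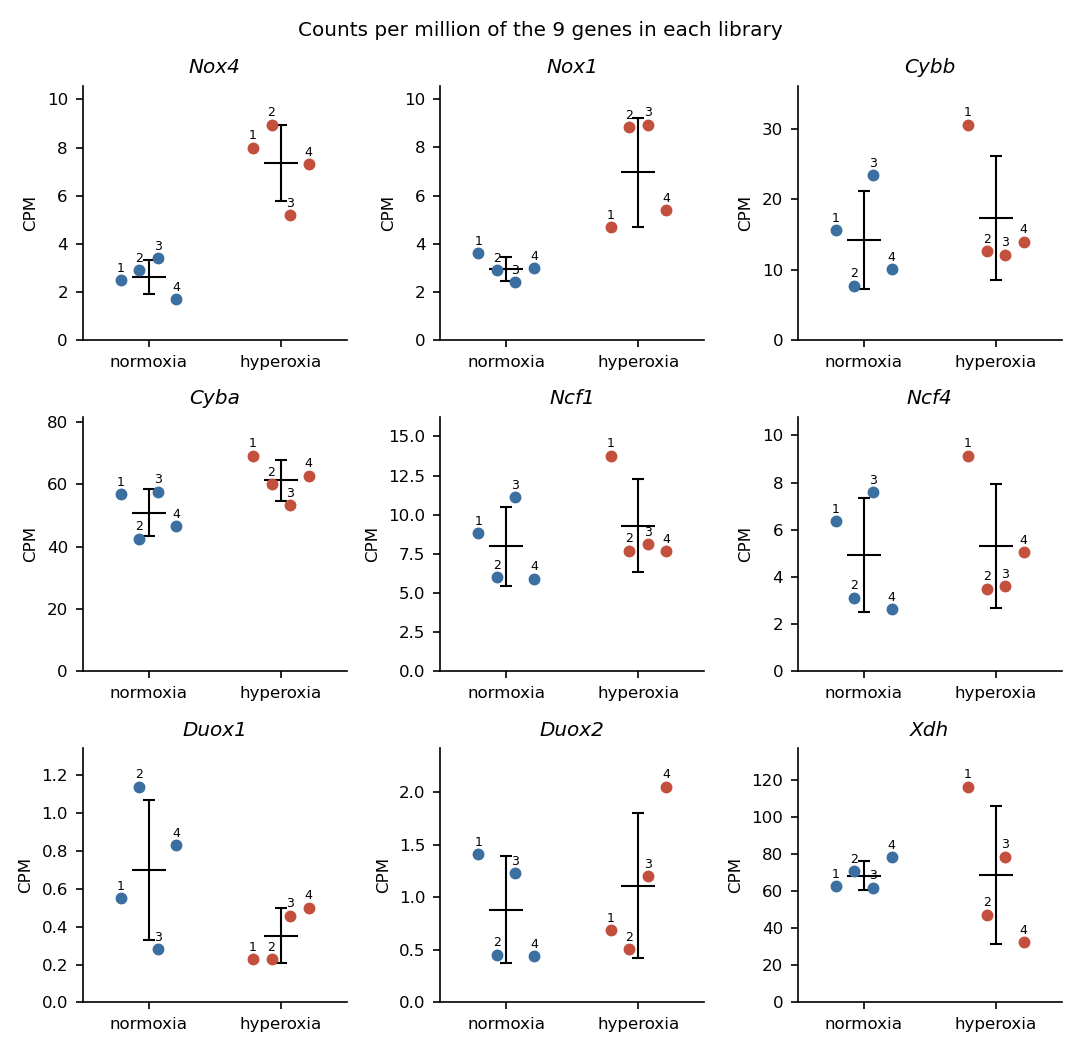
Each panel plots 1 gene, with CPM on a linear axis from 0 and each library as a numbered point; black bars give the mean ± SD of 4 libraries. The hyperoxia points lie above all normoxia points for Nox4 and Nox1 only, and how many of all genes separate in this way was not counted. The 4 hyperoxia points of Xdh spread from 32.4 to 116 CPM with means of 68.4 and 68.7 CPM in the groups.

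Nox4 (ENSMUSG00000030562, GRCm38 chr7:87246096-87398710, plus strand) encodes the catalytic subunit named as the main NADPH oxidase of many EC types. Its level was 2.51, 2.90, 3.41 and 1.71 CPM in normoxia 1 to 4 and 7.99, 8.95, 5.21 and 7.32 CPM in hyperoxia 1 to 4. Every hyperoxia library lay above every normoxia library. The highest value in normoxia, 3.41 CPM, and the lowest in hyperoxia, 5.21 CPM in hyperoxia 3, stood for 61 and 91 counts. The log2 fold change was 1.48 (SE 0.227, 95% interval 0.98 to 1.98) with an edgeR adjusted p of 0.000552. Per gene length the gene stayed low, with 0.201 to 0.400 FPKM in normoxia and 0.613 to 1.05 FPKM in hyperoxia.

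The library with the lowest Nox4 of the hyperoxia group, hyperoxia 3, was also the one with the lowest sums of alveolar type 2 markers (783 CPM, against 2053 to 2333 CPM in the other 3) and fibroblast markers (250.5 CPM, against 484 to 656 CPM). Fibroblast markers summed to 185 to 373 CPM in normoxia, with 5 of 8 tested higher in hyperoxia and none lower. Mural and smooth muscle markers summed to 47.4 to 83.6 CPM in normoxia and 104 to 182 CPM in hyperoxia, and 7 of 9 tested were higher, among them the pericyte gene Rgs5 (28.7 to 61.8 CPM on average). Alveolar type 1 markers summed to 1499 to 1925 and 1810 to 2323 CPM, with 6 of 8 higher. Most of these sums came from Clic5 (700 and 675 CPM on average) and Emp2 (951 and 1112 CPM), the 2 that did not pass. The markers called higher had lower levels, among them Ager (25.4 and 153 CPM) and Aqp5 (1.58 and 21.4 CPM). The part of these cells in the rise of Nox4 was not tested. Leaving out hyperoxia 3 gave a log2 fold change of 1.61, and leaving out any library left Nox4 past the threshold.

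A promoter window of Nox4 is shown here with that of Nox1, because these were the genes that rose. Each line holds the 250 bases before the RefSeq start of the gene on its own strand (GRCm38.p6), at chr7:87246399-87246648 for Nox4 and chrX:134111855-134112104 for Nox1 (minus strand). Both windows lie inside the longer gene that the count table lists, so each belongs to 1 annotated start and other starts were not examined. Capitals mark a GC box (GGGCGG).
Nox4: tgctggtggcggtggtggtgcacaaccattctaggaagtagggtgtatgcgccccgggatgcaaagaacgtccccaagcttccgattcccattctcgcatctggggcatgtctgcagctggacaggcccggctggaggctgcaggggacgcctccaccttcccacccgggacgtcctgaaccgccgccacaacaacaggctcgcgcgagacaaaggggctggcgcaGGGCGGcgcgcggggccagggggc
Nox1: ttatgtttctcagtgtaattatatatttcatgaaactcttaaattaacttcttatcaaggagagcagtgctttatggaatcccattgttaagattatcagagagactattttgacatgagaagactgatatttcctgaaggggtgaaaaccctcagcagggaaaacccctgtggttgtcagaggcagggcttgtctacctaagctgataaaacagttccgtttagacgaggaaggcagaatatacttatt
The Nox4 window was GC-rich, at 67.2% G and C, and 86.5% of the 32851 promoter windows in the RefSeq table had less. Its GC box lay 24 bases before the start, and 32.74% of all windows hold this motif on one of their strands. The Nox1 window had 38.0% G and C, with 8.5% of windows lower, and none of the 5 motifs searched on both strands was in it. They were the GC box, the AP-1 site TGANTCA, the antioxidant response core TGANNNNGC (35.20% of windows), the interferon response core GAAANNGAAA and the STAT site TTCNNNGAA. A match of the STAT site, which 7.02% of windows hold, began 222 bases before the start of Nox4. The median window had 52.4% G and C. A match of letters is a description of the window and not a bound site.

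Nox1 (ENSMUSG00000031257, GRCm38 chrX:134086421-134221956, minus strand) encodes the founding NADPH oxidase outside phagocytes, best known from colon epithelium and vascular smooth muscle. Its level was 3.61, 2.90, 2.41 and 2.98 CPM in normoxia 1 to 4 and 4.68, 8.83, 8.93 and 5.38 CPM in hyperoxia 1 to 4. The groups did not overlap, and hyperoxia 2 and hyperoxia 3 stood well above hyperoxia 1 and hyperoxia 4. The log2 fold change was 1.23 (SE 0.237, 95% interval 0.70 to 1.75) with an edgeR adjusted p of 0.00236. Hyperoxia 3, the library of that group with the least alveolar type 2 RNA, had the highest Nox1 level and the lowest Nox4 level. Mural and smooth muscle markers, higher in hyperoxia as given above, summed to 125, 182, 104 and 145 CPM in hyperoxia 1 to 4. The part of these and other cells in the rise of Nox1 was not tested. Over the 8 libraries log2 CPM of Nox1 and Nox4 had a Pearson r of 0.73, and after the group means were removed it was -0.34, given as a description of libraries that share their groups.

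The Nox1 count is uncertain. Of its 3307 exon bases, 399 (12.07%) are also exon bases of Cstf2 on the opposite strand, a gene of RNA 3′ end formation with 10408 counts over the 8 libraries against 698 for Nox1. Whether strand was used in counting is not given in the sources used here, so reads of both genes in this stretch cannot be told apart. Cstf2 itself was 68.8 to 79.2 CPM in normoxia and 74.1 to 76.5 CPM in hyperoxia, with a log2 fold change of 0.05 and an edgeR adjusted p of 0.483. Nox4 shares no exon base with another gene of the annotation.

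Cybb, the catalytic subunit of the phagocyte oxidase, had the highest level per length of the catalytic subunits in 6 of the 8 libraries. Cybb (ENSMUSG00000015340, GRCm38 chrX:9435252-9487771, minus strand) was at 15.6, 7.74, 23.4 and 10.1 CPM in normoxia 1 to 4 and at 30.5, 12.7, 12.1 and 14.0 CPM in hyperoxia 1 to 4. The groups overlapped, and normoxia 3 and hyperoxia 1 stood above the rest of their groups. The log2 fold change was 0.29 (SE 0.370, 95% interval -0.53 to 1.11) with an edgeR adjusted p of 0.585, an interval that leaves room for a change of either sign.

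Ncf1 (ENSMUSG00000015950, GRCm38 chr5:134220053-134229625, minus strand) encodes the organizer that carries the cytosolic complex to the membrane. Its level was 8.82, 6.03, 11.1 and 5.91 CPM in normoxia 1 to 4 and 13.8, 7.70, 8.13 and 7.66 CPM in hyperoxia 1 to 4. Normoxia 3 and hyperoxia 1 were again the highest of their groups, and the groups overlapped. The log2 fold change was 0.22 (SE 0.249, 95% interval -0.33 to 0.77) with an edgeR adjusted p of 0.524. Of its exon bases, 11.14% are shared with Gtf2ird2 on the opposite strand (2076 counts against 1213 for Ncf1), so part of this count is uncertain too. Gtf2ird2 itself was called lower in hyperoxia, at 16.3 CPM on average in normoxia and 13.3 CPM in hyperoxia (log2 fold change -0.30, edgeR adjusted p = 0.0293).

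Ncf4 (ENSMUSG00000071715, GRCm38 chr15:78244801-78262580, plus strand) encodes a cytosolic subunit that binds the phosphoinositide of phagosomes. It was at 6.37, 3.13, 7.61 and 2.65 CPM in normoxia 1 to 4 and at 9.14, 3.51, 3.61 and 5.05 CPM in hyperoxia 1 to 4. Normoxia 3 and hyperoxia 1 once more led their groups, which overlapped. The log2 fold change was 0.11 (SE 0.388, 95% interval -0.75 to 0.97) with an edgeR adjusted p of 0.851.

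Cybb, Ncf1 and Ncf4 went up and down together from library to library. The Pearson r of log2 CPM over the 8 libraries was 0.97 for Cybb with Ncf1, 0.93 for Cybb with Ncf4 and 0.93 for Ncf1 with Ncf4. Their FPKM ratios were close in the groups: Cybb to Ncf1 averaged 1.08 ± 0.212 in the normoxia libraries and 1.13 ± 0.198 in the hyperoxia libraries, and Ncf1 to Ncf4 was 0.966 ± 0.220 and 1.03 ± 0.227 (SD, n = 4 each). The same libraries were high in Ptprc, which encodes CD45, the leukocyte surface protein used for depletion. Ptprc was at 42.6, 25.0, 60.0 and 26.0 CPM in normoxia 1 to 4 and at 56.9, 34.0, 26.1 and 36.2 CPM in hyperoxia 1 to 4. The FPKM ratio of Cybb to Ptprc was 1.14 ± 0.118 in normoxia and 1.39 ± 0.240 in hyperoxia. The 3 genes most like Cybb over the 8 libraries were Fyb (r = 0.981), Pik3cd (0.979) and Ctss (0.979), and those most like Ncf1 were Ms4a6b (0.988), Cybb itself (0.973) and Ptpn6 (0.966). Those most like Ncf4 were Arhgap30 (0.989), A630001G21Rik (0.979) and Dock2 (0.974). What share of these transcripts came from leukocytes that passed the depletion was not tested.

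**Figure D2:**
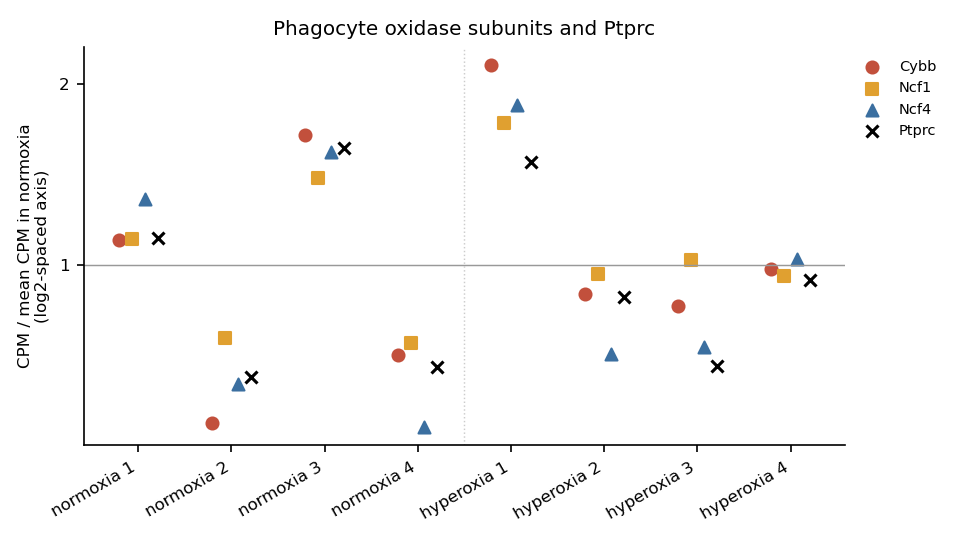
Points give the CPM of Cybb, Ncf1, Ncf4 and Ptprc in each library divided by the gene's mean in normoxia, on a log2-spaced axis. All 4 genes are highest within their group in normoxia 3 and hyperoxia 1.

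Macrophage and monocyte markers summed to 198 to 382 CPM in normoxia and 280 to 568 CPM in hyperoxia, with 3 of 14 higher and 1 lower. Lyz2, a lysozyme gene of macrophages that is also expressed in alveolar type 2 cells, was 88.8, 51.0, 124 and 45.8 CPM in normoxia 1 to 4 and 315, 252, 101 and 232 CPM in hyperoxia 1 to 4 (log2 fold change 1.54, edgeR adjusted p = 0.00748). Hyperoxia 3 lay below normoxia 3 for this gene. Lyz2 had the highest mean level of the list, at 77.3 and 225 CPM, so it weighed heavily in the sums. Marco and Chil3 were also called higher. Cd68 was called lower, at 40.8 and 25.7 CPM on average (log2 fold change -0.67, edgeR adjusted p = 0.000502). Csf1r, at 40.2 and 36.1 CPM, did not pass (edgeR adjusted p = 0.726). None of the 7 tested neutrophil markers of 10 (11.8 to 50.2 against 24.1 to 109 CPM summed) and none of the 8 B and T lymphocyte markers (59.7 to 141 against 76.0 to 122 CPM) passed the test.

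Promoter windows of Cybb and Ncf1 are shown because both genes went with the leukocyte profile. The windows are again the 250 bases before the RefSeq start, at chrX:9469325-9469574 (minus strand) for Cybb and chr5:134229626-134229875 (minus strand) for Ncf1 in GRCm38.p6. The Cybb window also lies inside the listed gene, and the Ncf1 window lies just outside it. Capitals mark the interferon-response core GAAANNGAAA in either direction.
Cybb: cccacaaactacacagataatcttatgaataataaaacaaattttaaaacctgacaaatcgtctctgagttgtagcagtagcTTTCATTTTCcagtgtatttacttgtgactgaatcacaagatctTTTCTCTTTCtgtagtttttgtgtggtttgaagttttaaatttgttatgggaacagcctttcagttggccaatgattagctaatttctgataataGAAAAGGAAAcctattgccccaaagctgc
Ncf1: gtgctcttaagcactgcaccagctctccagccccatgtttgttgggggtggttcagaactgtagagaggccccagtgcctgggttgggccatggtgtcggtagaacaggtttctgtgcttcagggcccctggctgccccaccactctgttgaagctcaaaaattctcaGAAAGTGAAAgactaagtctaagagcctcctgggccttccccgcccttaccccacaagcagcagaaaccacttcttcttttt
The Cybb window held 3 matches, starting 168, 124 and 29 bases before the start, and the Ncf1 window held 1, starting 82 bases before it. Of all 32851 windows, 2.98% hold this core. The Cybb window, with 34.0% G and C, also held 1 AP-1-type TGANTCA match, which 6.75% of windows hold, 139 bases before the start. In the Ncf1 window a TTCNNNGAA match, 88 bases before the start, ran into the interferon core, and a GGGCGG match on the opposite strand lay 42 bases before the start.

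Cyba, the membrane partner without which neither Nox4, Nox1 nor the phagocyte enzyme is stable or active, was by far the most abundant oxidase subunit. Cyba (ENSMUSG00000006519, GRCm38 chr8:122424776-122432930, minus strand) was at 56.9, 42.6, 57.6 and 46.6 CPM in normoxia 1 to 4 and at 69.1, 60.0, 53.3 and 62.8 CPM in hyperoxia 1 to 4. Hyperoxia 3 lay among the normoxia values, and the other 3 hyperoxia libraries lay above them all. The means were 50.9 ± 7.48 and 61.3 ± 6.55 CPM, a log2 fold change of 0.27 (SE 0.107, 95% interval 0.03 to 0.50) with an edgeR adjusted p of 0.0742. The call hung on the settings: the adjusted p was 0.0375 without the filter on low counts, 0.0420 without normoxia 3 and 0.0382 without hyperoxia 3, and over all 17 alternatives it ran from 0.0375 to 0.180. The genes most like Cyba were Dhrs3 (r = 0.988), Aup1 (0.985) and Psap (0.980). Among the members, r of Cyba was 0.83 with Cybb, 0.80 with Ncf1, 0.76 with Ncf4, 0.74 with Nox4 and 0.39 with Nox1. After the group means were removed these were 0.90, 0.83, 0.90, 0.48 and -0.46. What share of Cyba RNA came from leukocytes was not tested.

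Per length, Cyba exceeded its catalytic partners many times over in both groups. The FPKM of Cyba was 166 ± 46.3 times that of Nox4 in normoxia (120 to 222) and 69.7 ± 11.8 times in hyperoxia (54.7 to 83.5), and these ranges did not overlap; no test was made of them. Against Cybb the ratio averaged 22.7 ± 7.32 with room air and 22.2 ± 6.41 with hyperoxia (SD, n = 4 each).

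The make-up of the catalytic subunits was compared as shares of their summed FPKM (Nox1, Nox3, Nox4, Cybb, Duox1 and Duox2). The sum was 4.38, 2.80, 5.37 and 3.04 FPKM in normoxia 1 to 4 and 7.70, 6.02, 5.66 and 5.28 FPKM in hyperoxia 1 to 4. It was lowest in normoxia 2 and normoxia 4 and highest in hyperoxia 1, and only normoxia 3 came above the lowest hyperoxia value. Nox4 took 6.73, 12.1, 7.46 and 6.60% in normoxia 1 to 4 and 12.1, 17.5, 10.8 and 16.3% in hyperoxia 1 to 4. Its mean share went from 8.21 ± 2.59% to 14.2 ± 3.20%, a difference of 5.97 percentage points that did not pass an exact two-sided permutation test (p = 0.0571, where 70 assignments allow no less than 0.0286). Nox1 took 24.7 ± 7.90% and 35.2 ± 13.5%, and Cybb took 59.8 ± 11.5% and 46.5 ± 14.7%. Nox3, the oxidase of the inner ear, had no count in any library.

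**Figure D3:**
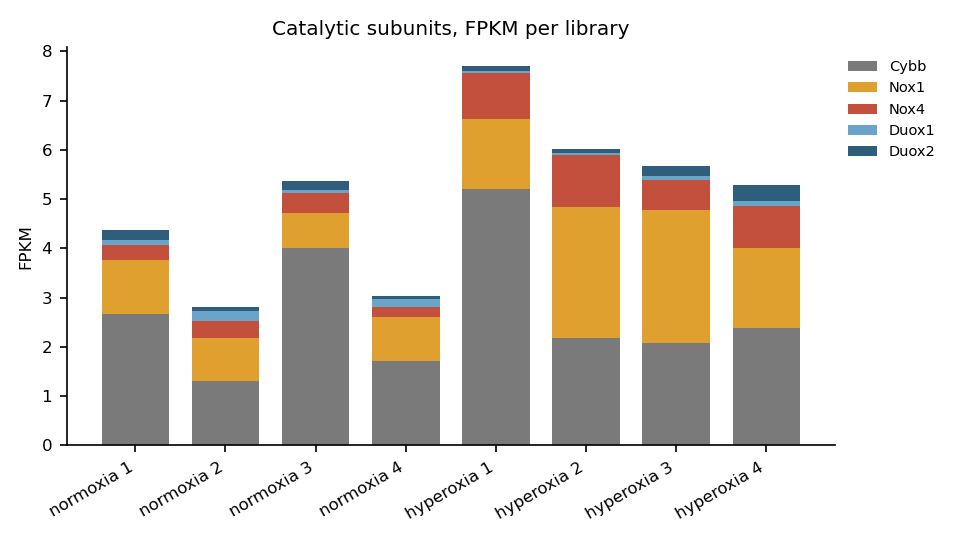
Bars stack the FPKM of the 5 detected catalytic subunits in each library, on a linear axis from 0. Cybb is the largest segment except in hyperoxia 2 and hyperoxia 3, where Nox1 is, and the Nox4 segment is 0.201 to 0.400 FPKM in normoxia and 0.613 to 1.05 FPKM in hyperoxia.

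The dual oxidases, peroxide-producing enzymes of thyroid and airway epithelium, were barely detected. Duox1 (ENSMUSG00000033268, GRCm38 chr2:122315672-122347972, plus strand) had 9, 20, 5 and 15 counts in normoxia 1 to 4 and 4, 4, 8 and 9 in hyperoxia 1 to 4, or 0.699 ± 0.368 and 0.353 ± 0.146 CPM. These values overlapped, and an exact two-sided permutation test of CPM gave p = 0.114. Duox2 (ENSMUSG00000068452, chr2:122279247-122298165, minus strand) had 23, 8, 22 and 8 counts in normoxia and 12, 9, 21 and 37 in hyperoxia. It was at 0.884 ± 0.508 and 1.11 ± 0.692 CPM, a log2 fold change of 0.34 (SE 0.507, 95% interval -0.78 to 1.46) with an edgeR adjusted p of 0.641. No difference of either gene was detected. Their maturation factors Duoxa1 and Duoxa2, which bring the enzymes to the cell surface, were below the filter.

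None of the other NADPH oxidase genes and partners was called higher. Of 15 such genes 11 were tested, 0 were higher and 3 were lower in hyperoxia, with a median log2 fold change of -0.10 against -0.004 over all genes, of which 18.5% were higher and 17.1% lower. Counts this small are near those shares. Prex1, a nucleotide exchange factor for Rac, fell from 198 ± 5.15 to 143 ± 5.66 CPM (log2 fold change -0.47, SE 0.0440, edgeR adjusted p = 2.07e-05). Sh3pxd2a, a scaffold related to the oxidase organizers, went from 539 ± 32.7 to 482 ± 18.1 CPM (log2 fold change -0.16, edgeR adjusted p = 0.0365). Poldip2, a protein reported to bind Cyba and raise Nox4 activity, went from 42.7 ± 2.06 to 38.5 ± 1.16 CPM (log2 fold change -0.15, edgeR adjusted p = 0.0496). The calls of these last genes were fragile, as 10 of 17 alternatives kept Sh3pxd2a past the threshold and 3 of 17 kept Poldip2. Rac1, the GTPase that switches on Nox1 and, in many cells, Cybb, was at 526 ± 21.9 and 485 ± 13.7 CPM (edgeR adjusted p = 0.0745). The groups did not overlap for Prex1, Poldip2 and Rac1, and the share of all genes that do so was not counted. Noxo1 and Noxa1, the organizer and activator of Nox1, were at 2.06 and 1.43 CPM on average (edgeR adjusted p = 0.180) and at 0.118 and 0.494 CPM, the latter below the filter.

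Xdh did not differ in mean between the groups, but its hyperoxia libraries were spread far apart. Xdh (ENSMUSG00000024066, GRCm38 chr17:73883895-73950196, minus strand), which encodes the enzyme that turns hypoxanthine into xanthine and xanthine into uric acid, was at 62.8, 70.7, 61.8 and 78.5 CPM in normoxia 1 to 4. In hyperoxia 1 to 4 it was at 116, 47.3, 78.7 and 32.4 CPM. Hyperoxia 1 lay above all normoxia libraries, hyperoxia 3 lay just above the highest of them, and hyperoxia 2 and hyperoxia 4 lay below them all. The means were 68.4 ± 7.80 and 68.7 ± 37.2 CPM, a log2 fold change of 0.004 (SE 0.308, 95% interval -0.68 to 0.68) with an edgeR adjusted p of 0.993. The ratio of the highest to the lowest library was 1.27 in normoxia and 3.59 in hyperoxia. The SD of log2 CPM was 0.161 in normoxia and 0.809 in hyperoxia. Among the 9299 genes of at least 10 CPM, 19.9% had a larger SD in normoxia and 0.850% had a larger one in hyperoxia, where the median gene had 0.0806. Counts were high for Xdh, at 584 to 2037 per library.

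The 3 genes most like Xdh over the 8 libraries were Tap2 (r = 0.988), Trafd1 (0.986) and Ciita (0.984), out of 10419 candidates. Tap2 encodes part of the peptide transporter for antigen presentation, Ciita the master activator of MHC class II genes, and Trafd1 a regulator of innate immune signalling. Ciita was at 17.1, 19.5, 18.1 and 23.0 CPM in normoxia 1 to 4 and at 67.0, 9.85, 20.0 and 4.33 CPM in hyperoxia 1 to 4. Its order in hyperoxia, with library 1 highest, then 3, then 2, then 4, was that of Xdh. Tap2 was at 133, 97.4, 117 and 77.6 CPM in hyperoxia 1 to 4 and at 103 to 119 CPM in normoxia. Trafd1 was at 123, 82.3, 102 and 63.5 CPM in hyperoxia and at 84.0 to 99.5 CPM in normoxia. As these genes were picked for their likeness to Xdh over the same libraries, the shared order follows largely from the choice. These correlations share libraries and depth and were given no test.

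**Figure D4:**
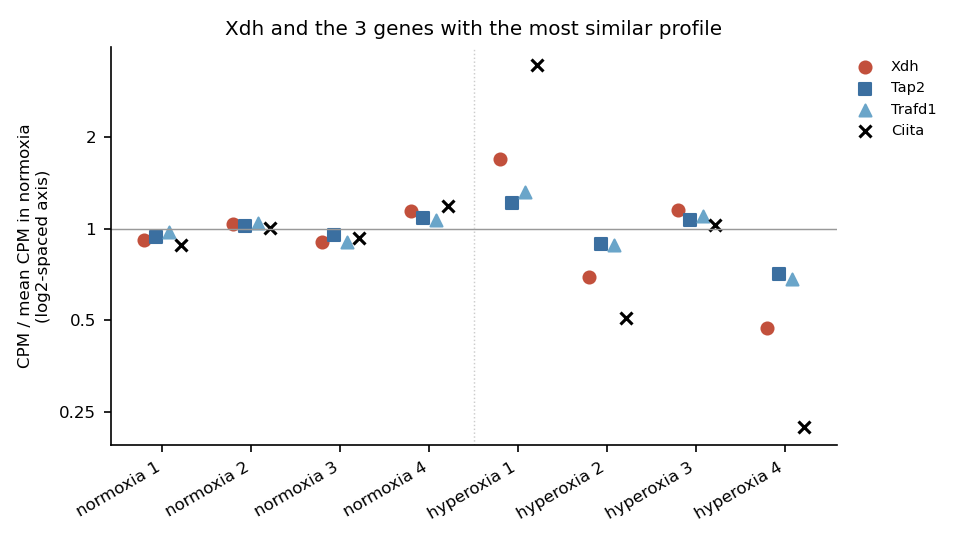
Points give the CPM of Xdh, Tap2, Trafd1 and Ciita in each library divided by the gene's mean in normoxia, on a log2-spaced axis. In hyperoxia all 4 genes are highest in library 1, above the normoxia mean in library 3 and below it in libraries 2 and 4. The genes beside Xdh were picked for their likeness to it.

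None of the 10 cell type marker lists had the full order of the hyperoxia libraries for Xdh, although several were highest in hyperoxia 1, as Xdh was. Hyperoxia 3, the second highest for Xdh, had the least alveolar type 2 and fibroblast RNA of its group, and hyperoxia 2 and hyperoxia 4, the lowest for Xdh, had 2300 and 2053 CPM of alveolar type 2 markers. Leukocyte markers summed to 264, 164, 139 and 172 CPM in hyperoxia 1 to 4, so they were highest in hyperoxia 1, as Xdh was, but lowest in hyperoxia 3. Pan-endothelial markers summed to 16971, 17860, 17676 and 17564 CPM there. Alveolar type 2 markers were highest in hyperoxia 1, at 2333 CPM. The part of cell make-up in the spread of Xdh was not tested.

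Among genes that feed purines to Xdh or are related to it, several changed. Of 20 genes of purine breakdown and salvage, molybdenum cofactor supply and aldehyde oxidation, 17 were tested, 9 were higher and 1 was lower in hyperoxia, with a median log2 fold change of 0.31 against -0.004 over all genes, of which 18.5% were higher. Upstream of Xdh, Nt5e, which encodes CD73 and makes extracellular adenosine from AMP, rose from 1.13 ± 0.347 to 8.11 ± 3.03 CPM (log2 fold change 2.85, SE 0.343, edgeR adjusted p = 0.000114). Nt5e was at 10.5, 9.06, 3.66 and 9.21 CPM in hyperoxia 1 to 4, lowest in hyperoxia 3, as the sum of alveolar type 2 markers was. The AMP deaminases, which turn AMP into IMP, rose as well, Ampd3 from 22.6 ± 1.12 to 55.1 ± 4.29 CPM (log2 fold change 1.29, edgeR adjusted p = 4.82e-07) and Ampd2 from 37.5 ± 2.30 to 51.1 ± 1.66 CPM (0.44, edgeR adjusted p = 0.000164). Gda, the guanine deaminase that yields xanthine directly, rose from 5.22 ± 2.09 to 16.1 ± 2.74 CPM (log2 fold change 1.63, edgeR adjusted p = 0.000488). Within the groups Gda was highest in normoxia 3 (7.50 CPM) and hyperoxia 1 (19.8 CPM), as Ptprc was. Nt5c2, a cytosolic nucleotidase acting on IMP, fell from 24.1 ± 1.06 to 18.7 ± 0.940 CPM (log2 fold change -0.36, edgeR adjusted p = 0.00171). Each of these genes had groups that did not overlap, and the share of all genes that do so was not counted.

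In the salvage branch, which returns bases to nucleotides, Aprt rose from 15.1 ± 1.70 to 28.0 ± 0.699 CPM (log2 fold change 0.90, edgeR adjusted p = 1.97e-05), while Hprt, at 43.5 ± 2.62 and 45.9 ± 2.19 CPM, did not pass the test (edgeR adjusted p = 0.346). Ada and Pnp, the deaminase and the phosphorylase between adenosine and hypoxanthine, did not pass either (edgeR adjusted p = 0.124 and 0.853). Uox, which degrades uric acid, was below the filter.

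Among the other molybdenum enzymes and the cofactor genes, Aox1, Aox3, Mocos and Mocs1 passed the test. Aox1, an aldehyde oxidase that is close kin of Xdh and releases superoxide and peroxide, rose from 2.21 ± 0.401 to 8.65 ± 0.448 CPM (log2 fold change 1.97, SE 0.149, edgeR adjusted p = 4.64e-06). Aox3, its neighbour in the same family, rose from 0.673 ± 0.218 to 2.53 ± 0.607 CPM (log2 fold change 1.90, SE 0.294, edgeR adjusted p = 0.000587). Neither gene's groups overlapped. Mocos, which adds the sulfur that Xdh and the aldehyde oxidases need, rose from 3.73 ± 0.477 to 6.22 ± 0.606 CPM (log2 fold change 0.74, edgeR adjusted p = 0.00228), and Mocs1, the first step of cofactor synthesis, rose from 19.1 ± 0.579 to 23.2 ± 1.11 CPM (0.27, edgeR adjusted p = 0.00708). Mocs2, Mocs3 and Gphn, the later steps, and Suox, a molybdenum enzyme that does not need Mocos, did not pass the test, and Aox2 and Aox4 were below the filter. The markers of alveolar and mesenchymal cells given above were higher in the same libraries. The part of these cells and of leukocytes in these rises, and in those of the purine genes, was not tested.

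**Figure D5:**
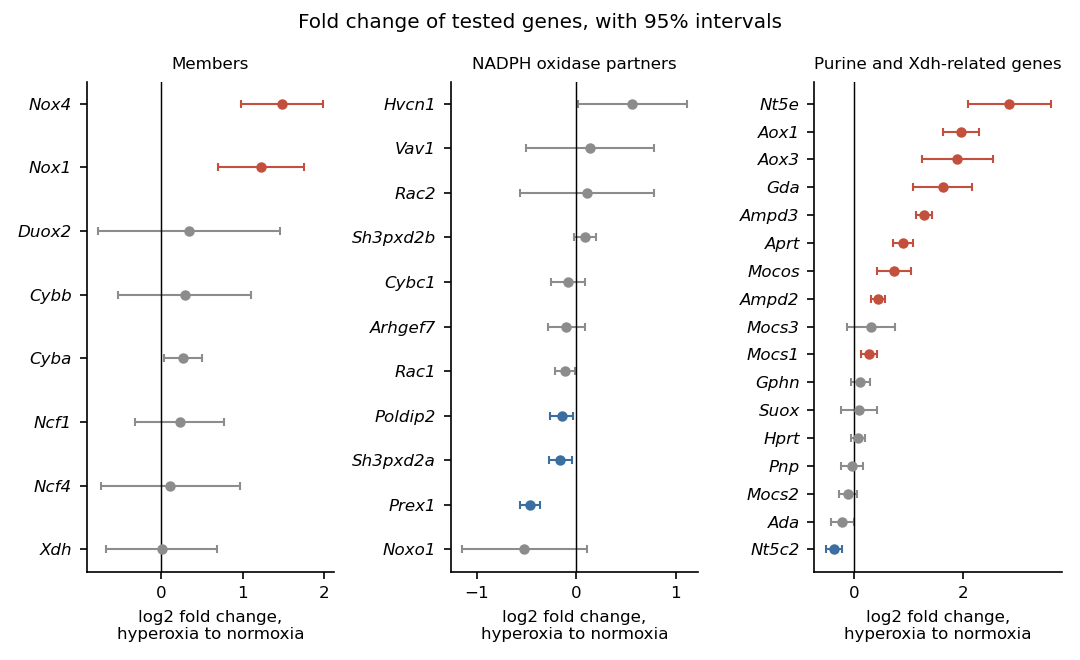
Points give the log2 fold change of hyperoxia relative to normoxia with its 95% interval for the tested members, the tested NADPH oxidase partners and the tested purine and Xdh-related genes (edgeR, 4 libraries a group); genes past the threshold are red where higher and blue where lower, and the rest are grey. The Nox4 and Nox1 intervals lie above 0.5, and 9 of 17 purine and Xdh-related genes are red.

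Enzymes that make or remove peroxide outside these families were also counted. A list of 22 genes held other oxidases and peroxidases, and also Sqle, an epoxidase that is neither. Of these genes 13 were tested, with 5 higher, among them Sqle, and 1 lower, against 18.5% higher and 17.1% lower over all genes. Sqle, the squalene epoxidase of sterol synthesis, rose from 13.4 ± 2.37 to 27.0 ± 4.91 CPM (log2 fold change 1.01, edgeR adjusted p = 0.000498), Smox, the spermine oxidase, from 52.0 ± 2.20 to 68.3 ± 4.58 CPM (0.40, edgeR adjusted p = 0.000458), and Maoa, a monoamine oxidase of mitochondria, fell from 211 ± 18.6 to 151 ± 9.40 CPM (-0.48, edgeR adjusted p = 0.000356). Of 15 enzymes that remove superoxide or peroxide, all tested, 5 were higher and 0 lower, beside the same shares of all genes. Gpx3, the secreted glutathione peroxidase, rose from 9.56 ± 1.19 to 60.0 ± 7.01 CPM (log2 fold change 2.65, SE 0.109, edgeR adjusted p = 8.44e-08). Prdx6, a peroxiredoxin abundant in lung, rose from 80.3 ± 6.12 to 118 ± 13.8 CPM (0.55, edgeR adjusted p = 0.000670), and Gpx1 rose from 79.1 ± 12.4 to 101 ± 4.63 CPM (0.36, edgeR adjusted p = 0.0143). The superoxide dismutases Sod1, Sod2 and Sod3 did not pass the test (edgeR adjusted p = 0.673, 0.712 and 0.0529). Alveolar and mesenchymal markers were higher in the same hyperoxia libraries, and the part of those cells in the changes of these enzymes was not tested.

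The genes with profiles most like the members that rose were of mixed kinds. For Nox4 they were Boc (r = 0.986), Pla2g4a (0.985) and Rtkn2 (0.984), of which Rtkn2 is one of the alveolar type 1 markers. Rtkn2 was at 1.10, 1.88, 2.29 and 1.05 CPM in normoxia 1 to 4 and at 14.8, 15.3, 5.04 and 12.1 CPM in hyperoxia 1 to 4. It shared with Nox4 the order of the hyperoxia libraries 2, 1, 4 and 3. As Rtkn2 was picked for its likeness to Nox4 over these libraries, that order follows largely from the choice. For Nox1 they were Ern1 (0.980), B4galt5 (0.979) and Thoc6 (0.978). For Duox2 the closest were Fxyd6 (0.930), Pum3 (0.927) and Xxylt1 (0.925), lower values than for the other 7 members tested.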

How the data were processed

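RNA of CD31-captured lung ECs was sequenced by the authors as paired ends; libraries were made with a SMARTER kit per the labels. The submitters' processing notes name HISAT2 2.0.5 and featureCounts 1.5.0-p3, and mm10. The authors deposited whole-number gene counts and FPKM values for 54532 genes; deposited FPKM were found to carry the same counts, scaled by gene length and a constant of each library (0.974 to 1.01 after library totals). The strand setting is not given in the sources used here.

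Groups were taken from the sample titles. Counts of all 8 libraries were fitted with edgeR 4.0.16 (R 4.3.3; TMM, filterByExpr, group as the only term, quasi-likelihood test), and p-values were adjusted over the 15564 genes kept. SE and 95% intervals follow from the F statistic. CPM is the count over the TMM-scaled library size. The share of all genes with groups that did not overlap in CPM was not counted. Genes below the filter and shares were compared by exact permutation. The steps were tested on simulated counts. The alternatives were DESeq2 1.42.0, limma 3.58.1 (voom, and log2 FPKM with pseudocounts of 0.1 and 1), other scalings and filters, the replicate block and leaving out each library.

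The 9 members and all lists were chosen with earlier results of these data known. Named were the members, every partner and purine-list gene past the threshold, the 3 largest changes of at least 10 CPM in the other 2 enzyme lists, the most abundant markers of a cell type list and the 3 most similar genes (Pearson r of log2 CPM, mean of at least 5 CPM); Rac1, further genes that did not pass, overlapping genes and the promoter motifs were chosen after their values were seen. One gene of the partner list is not reported here. Promoter windows were matched by symbol for 7 of the 9 members in RefSeq's GRCm38.p6 table, Ncf4 and Xdh excepted.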

Additional observations from a re-analysis of the deposited data

Results flagged for a closer look

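A single library standing apart from the other 3 of its group (by Dixon's 95% criterion) was found in 3 of 20 groups checked, where chance gives about 1. Cybb in hyperoxia 1 reached 30.5 CPM, where hyperoxia 2, 3 and 4 had 12.1 to 14.0 CPM. Ncf1 in hyperoxia 1 was at 13.8 CPM, against 7.66 to 8.13 CPM. Ptprc was also highest of its group there, at 56.9 CPM, and the part of leukocytes was not tested. The Nox4 share of catalytic FPKM in normoxia 2 was 12.1%, against 6.60 to 7.46% in the other normoxia libraries, and Cybb had its lowest FPKM of the group there, at 1.31.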

How the results depend on the processing

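The number of members past the threshold was 2 or 3 in every alternative, the third being Cyba, and Nox4 and Nox1 stayed past it in all 17 (log2 fold change 0.51 to 1.63 and 0.69 to 1.38). The number of all genes past the adjusted p was 5535 and 4526 to 5659 in the alternatives; with a fold change of at least 2 it was 1087, and 330 with limma on log2(FPKM + 1), where the pseudocount shrinks low genes. Partner genes past the threshold numbered 3, and 1 to 4 when 1 library was left out (1 without normoxia 2, normoxia 4, hyperoxia 1, hyperoxia 3 or hyperoxia 4); purine-list genes numbered 10 throughout. Of the 6 tested members that did not pass, Cyba kept its sign (0.19 to 0.33) and the other 5 changed sign in at least 1 alternative. Xdh was -0.019 with upper quartile scaling, -0.16 with limma-voom, -0.15 and -0.11 with limma on log2(FPKM + 0.1) and log2(FPKM + 1), and -0.14 with the replicate block, and -0.37 to 0.24 when 1 library was left out. Under leave-one-out the ranges were -0.13 to 0.64 for Cybb, -0.025 to 0.43 for Ncf1, -0.28 to 0.40 for Ncf4 and -0.14 to 0.64 for Duox2; the low ends of Cybb, Ncf1 and Ncf4 came without hyperoxia 1. The cause was not tested. The Nox4 share differed by 4.87 to 7.26 points under leave-one-out, 5.91 without Duox1 and Duox2, and 9.73 as shares of CPM, none past the threshold. The exact test has few assignments once 1 library is left out, so not passing there says little. Without normoxia 2 the shares did not overlap, at 6.60 to 7.46% in normoxia and 10.8 to 17.5% in hyperoxia. Duox1 gave p = 0.143 by exact permutation after thinning.

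Replicate numbers did not pair the libraries (correlations of same-number deviations 0.119, 0.0361, -0.125 and -0.140). The replicate block left 4792 genes and 2 members past the threshold. Both dual oxidases had few counts, and a limit of detection was not tested.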
